A study of Mus musculus with 52 samples.

Results

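The GATA switch and erythroid transcription factors examined here are 8 genes, Gata1, Gata2, Klf1, Gfi1b, Gfi1, Zfpm1, Nfe2 and Myb, out of 28786 gene identifiers. The choice was by name, with earlier results of these data known, so shares set beside all genes are descriptions only. Each symbol matched 1 identifier. They were followed in 49 of 52 single cells of mouse bone marrow, each sequenced from whole transcripts in its own well (Smart-seq2, without molecular tags). All cells carry the label primed HSCs (haematopoietic stem cells) and come from C57BL/6 animals aged 6 to 8 weeks. Their genotype was Cd4-cre;R26Tdtomato, an arrangement in which Cre made under Cd4 control can turn on a red fluorescent reporter. Marrow was taken from the leg bones, and red cells were lysed with 0.16 M ammonium chloride. No animal, sort gate or plate is named in the sources used here, so the cells form 1 sample without replicates. Correlations and ranges are therefore descriptions of these cells and carry no test. Cells are called by the number in their title.

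GATA2 and GATA1 are zinc finger factors that bind the same GATA sequence. In blood formation GATA2 acts in stem and progenitor cells, and GATA1 takes its place at many sites as cells enter the red cell and megakaryocyte lines, an exchange known as the GATA switch. Zfpm1 encodes FOG1, the partner that GATA1 needs for much of its work, Klf1 encodes the factor that binds CACCC boxes of red cell genes, and Gfi1b and Gfi1 encode related repressors. Nfe2 encodes the larger subunit of NF-E2, known for its work in megakaryocytes and red cells, and Myb keeps progenitors dividing.

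The promoters show which members carry GATA letters, which GATA1 and GATA2 bind, or CACCC letters, which KLF1 binds. CCAAT letters were counted as well, and no letters for the other members were searched. RefSeq (GRCm38.p6) gave a window of 250 bases before an annotated start for 7 of the 8 symbols, and Nfe2 had none. The search covered GATA sites, CACCC boxes and CCAAT boxes on both strands, and no match of one kind overlapped a match of another in the members' windows. A GATA site was AGATAA or TGATAA, or either of these with G as its last letter. A CACCC box was the letters CACCC, and a CCAAT box the letters CCAAT. Of all 32851 windows in the table, 26.5% held a GATA site, 52% a CACCC box and 33.8% a CCAAT box. The windows of the switch pair and of 3 further members are printed 5′ to 3′ on the strand of the gene, with GATA and CACCC letters, or their complement, in capitals. Gata1, chrX:7967911-7968160, minus strand, inside the gene's annotated span and outside its exons, is followed by Gata2, chr6:88193641-88193890, plus strand, just before the gene. Klf1, chr8:84901732-84901927, plus strand, is printed up to the first annotated exon. Gfi1b, chr2:28621983-28622232, minus strand, and Zfpm1, chr8:122281891-122282140, plus strand, both end just before their genes.
Gata1: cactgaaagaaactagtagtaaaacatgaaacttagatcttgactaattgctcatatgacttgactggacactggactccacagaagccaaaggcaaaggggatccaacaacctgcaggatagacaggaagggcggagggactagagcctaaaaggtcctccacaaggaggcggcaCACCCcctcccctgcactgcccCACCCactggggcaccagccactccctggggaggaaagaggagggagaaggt
Gata2: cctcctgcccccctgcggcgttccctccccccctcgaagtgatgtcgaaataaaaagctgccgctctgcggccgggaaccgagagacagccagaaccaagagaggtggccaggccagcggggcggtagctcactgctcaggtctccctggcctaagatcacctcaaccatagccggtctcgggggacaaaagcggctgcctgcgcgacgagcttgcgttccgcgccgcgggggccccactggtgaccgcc
Klf1: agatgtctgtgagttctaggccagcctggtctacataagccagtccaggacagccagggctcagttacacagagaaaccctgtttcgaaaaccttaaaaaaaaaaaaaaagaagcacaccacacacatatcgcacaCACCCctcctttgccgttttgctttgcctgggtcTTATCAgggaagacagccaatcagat
Gfi1b: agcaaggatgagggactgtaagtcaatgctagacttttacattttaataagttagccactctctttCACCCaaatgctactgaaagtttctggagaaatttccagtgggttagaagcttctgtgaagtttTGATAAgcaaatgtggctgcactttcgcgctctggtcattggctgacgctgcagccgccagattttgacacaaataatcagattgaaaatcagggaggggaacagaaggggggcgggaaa
Zfpm1: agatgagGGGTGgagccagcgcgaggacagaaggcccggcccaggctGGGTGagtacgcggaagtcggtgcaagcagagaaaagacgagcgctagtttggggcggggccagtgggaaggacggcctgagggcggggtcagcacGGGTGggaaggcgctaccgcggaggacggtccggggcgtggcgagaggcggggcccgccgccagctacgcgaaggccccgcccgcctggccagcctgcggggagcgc
The Klf1 window held a GATA site on the opposite strand, TTATCA, which began 80 bases before the RefSeq start and lies in the printed stretch. The Gfi1b window held TGATAA on its own strand, beginning 120 bases before the start. No GATA letters of the searched kind occurred in the other 5 members' windows, which says only that these letters are not in these windows. CACCC boxes numbered 2 in the Gata1 window and 3 in the Zfpm1 window, while the Gata2 window just before the gene held 0. Another Gata2 window, chr6:88198414-88198663, inside the gene's span and not printed, held 1 CACCC box and 2 CCAAT boxes. Of the unprinted windows of other members, the first of Gfi1 held 2 CACCC boxes, its other 0 and that of Myb 1. Klf1 and Gfi1b had 1 CACCC box and 1 CCAAT box each. A match of letters is a description and not a bound site, and no binding was measured.

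Kept cells had a median of 2187579 reads (85519 to 12446477) and 7041 genes with a read (1527 to 9624). Against the label, stem cell markers were sparse: Ly6a had a read in 8 cells, Procr in 6, Slamf1 in 8 and Hlf in 17, whereas Car1, an early red cell gene, had reads in all 49. Cd4 had no read in any kept cell. Cells 6 and 13 were alike beyond the rest, with a Pearson r of 0.951 between their log2(CPM + 1) profiles against a median of 0.576 over all pairs of cells, and the next pairs were 23 with 25 (0.822) and 4 with 23 (0.816). Cell 34 was rich in myeloid RNA, with Lyz2 at 39230 CPM (CPM scales the counts of each cell to the same total). Cell 9 was the shallowest, at 85519 reads, and held the highest level of the B cell genes Cd79a and Ighm (2304 and 1602 CPM). Correlations below are given with cells 9, 13, 23 and 34. Those of members with each other, with Klf1, with Cd34 and with list sums over all cells were also computed without them. Where this moved a printed value by more than 0.1, both are given. Correlations of single other genes, those given depth or G2/M, and list sums or the ratio within the Cd34 sets were not computed without these cells.

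Of the 8 factors, 7 were present in nearly every cell and Gfi1 was in none. Those 7, or 87.5% of the members, were read in 50% or more of the cells, and so were 24.4% of all gene identifiers. Myb had a read in 49 of 49 cells (100%, Clopper-Pearson 95% interval 92.7% to 100%), Nfe2 in 48, Gata2 in 47, Klf1 in 46, Gfi1b in 45, Gata1 in 44 and Zfpm1 in 42 (85.7%, 72.8% to 94.1%). Gfi1 had 0 reads in all 52 cells. For the 49 kept cells a count of 0 allows a share of up to 6.12% of cells with a Gfi1 read (3 of 49; the exact interval ends at 7.25%), which limits cells with a read and not cells that express the gene. The intervals cover counting error only, since reads copied by PCR are not independent molecules. With each cell thinned to 85519 reads, the counts of cells with a read were 48 for Myb, 47 for Nfe2, 43 for Gata2, 40 for Klf1, 39 for Gata1, 38 for Gfi1b and 33 for Zfpm1. At a level of 10 CPM or more, 22 cells held all 7 detected factors, 14 held 6 and 6 held 5. Fewer were found in 7 cells, down to 1 factor (Nfe2) in cell 34.

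Gata1, at chrX:7959260-7978071, minus strand (ENSMUSG00000031162), ran from 0 to 1007 CPM with a median of 405 and a mean of 408 ± 302 (SD over 49 cells). It was at 0 in cells 9, 27, 33, 34 and 47, and highest in cell 44. Its levels fell into separate ranges: 10 cells had fewer than 10 CPM, and the other 39 had 79.5 CPM or more, with none in between. Gata2, at chr6:88193891-88207032, plus strand (ENSMUSG00000015053), had a median of 249 CPM (0 to 2221; mean 368 ± 408). Cell 15 stood alone at the top, with 2221 CPM against 1104 in the next cell, and only cells 9 and 24 had no Gata2 read. Both GATA factors were thus read in most cells, and 10 CPM or more was reached by Gata1 in 39 cells and by Gata2 in 41.

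Klf1, at chr8:84901928-84905291, plus strand (ENSMUSG00000054191), had a median of 736 CPM (0 to 1648; mean 632 ± 476) and was highest in cell 1. It was at 0 in cells 26, 27 and 41. Zfpm1, at chr8:122282141-122337251, plus strand (ENSMUSG00000049577), was the faintest detected member, with a median of 15.9 CPM (0 to 143; mean 29.8 ± 34.5) and 10 CPM or more in 34 cells. An annotated gene on the same strand, Gm20388, spans Zfpm1 and had reads in 21 cells (median 0, highest 555 CPM), so reads may be split between both entries. Gfi1b, at chr2:28609450-28621982, minus strand (ENSMUSG00000026815), had a median of 231 CPM (0 to 1211; mean 328 ± 312). It was highest in cell 17 and at 0 in cells 9, 31, 41 and 52. Its relative Gfi1 lies at chr5:107716657-107726036, minus strand (ENSMUSG00000029275).

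Nfe2, at chr15:103248212-103258403, minus strand (ENSMUSG00000058794), had a median of 206 CPM (0 to 1998; mean 330 ± 360). Cell 26 was highest and cell 34, the myeloid-rich one, was next with 1131 CPM. Cell 27 had no Nfe2 read. Myb, at chr10:21124935-21160984, minus strand (ENSMUSG00000019982), was the most even, with a median of 471 CPM (3.28 to 1240; mean 498 ± 277). Only cells 32 and 34 had less than 10 CPM of Myb, with 3.28 and 4.97. An annotated antisense gene lies across Myb and another across Gfi1, and the strand setting of the counting is not given in the sources used here.

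To order the members by level, CPM was divided by the median length of their protein-coding transcripts in kilobases. Klf1 was highest, at 413 ± 311 CPM per kilobase (mean ± SD, 49 cells), followed by Gata1 at 215 ± 159, Nfe2 at 194 ± 212, Gfi1b at 187 ± 178, Myb at 147 ± 81.8, Gata2 at 110 ± 122 and Zfpm1 at 8.79 ± 10.2. Each neighbour in this order differed from the next by less than the larger of their SDs. By median the order was Klf1 (481 CPM per kilobase), Gata1 (213), Myb (139), Gfi1b (132), Nfe2 (122), Gata2 (74.1) and Zfpm1 (4.69). Nfe2 and Myb exchanged places between the orders, and the other members kept theirs. With the length of all exons joined in place of the transcript length, the median of Myb was 52.7 CPM per kilobase, and the other members moved by less than their SD.

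**Figure D1:**
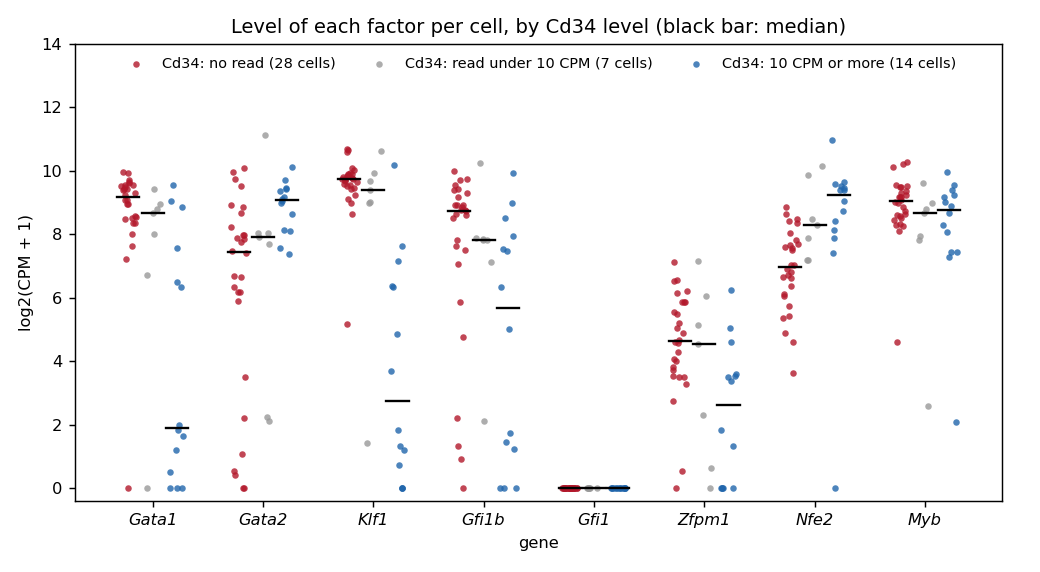
Level of each factor in 49 cells, as log2(CPM + 1) on the vertical axis, with 1 point per cell coloured by the cell's Cd34 level and a black bar at the median of each set. Gata1 and Klf1 medians sit low (2.75 and 7.18 CPM) in the 14 cells with 10 CPM or more of Cd34, where the Gata2 and Nfe2 medians are 543 and 603 CPM, while Gfi1 is at 0 throughout.

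Gata1 and Gata2 were not mutually exclusive. At 10 CPM or more, 33 cells held both, 6 held Gata1 alone (cells 6, 19, 24, 39, 43 and 48), 8 held Gata2 alone (cells 26, 27, 31, 32, 33, 47, 51 and 52) and 2 held neither (cells 9 and 34). The level of Gata1 exceeded that of Gata2 in 27 cells and fell short of it in 21, and both were at 0 in the remaining cell. The log2 ratio of Gata1 to Gata2, each with 1 CPM added, ran from -9.43 in cell 47 to 9.40 in cell 24, with a median of 0.22, and lay within 1 of equality in 13 cells. Across all 49 cells the Spearman correlation of the pair was -0.222. Without cells 9, 13, 23 and 34 it was -0.357. It was -0.0632 within the 21 cells that had a Cd34 read and 0.0263 within the 28 that had none, both nearer 0 than over all cells. Without the set-apart cells these within-set values were -0.211 (20 cells) and -0.123 (25 cells), so their sign in the cells without a Cd34 read rests on those cells.

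**Figure D2:**
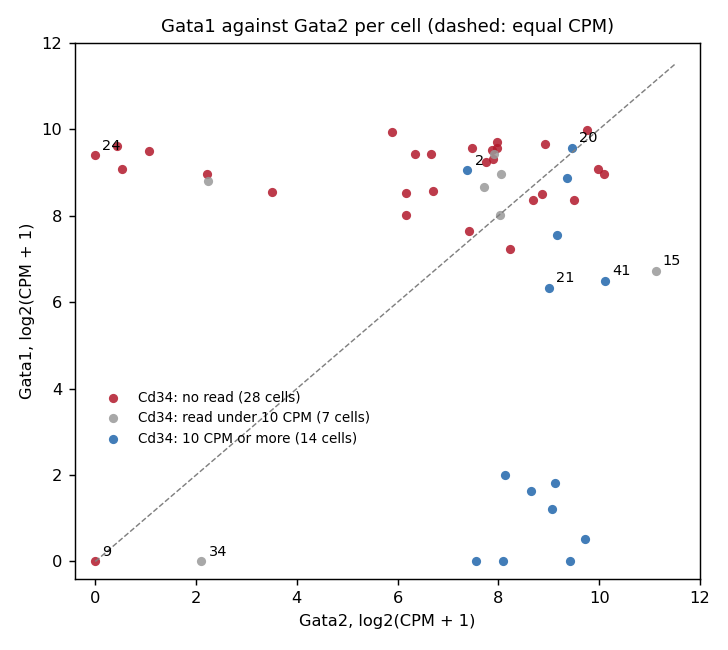
Gata1 (vertical) against Gata2 (horizontal) in each of 49 cells, both as log2(CPM + 1), coloured by Cd34 level, with a dashed line at equal CPM and some cells numbered. The 33 cells with both genes fill the upper right, 6 cells with Gata1 alone lie at the upper left, 8 with Gata2 alone lie at the lower right, and cells 9 and 34 have neither at 10 CPM.

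Cells were then ordered by Klf1 and divided into a lower range of 16 cells (0 to 402 CPM), a middle range of 17 (505 to 851) and an upper range of 16 (852 to 1648). These are ranges of 1 gene's level and not cell types. Cells 37 (402 CPM) and 3 (505 CPM) flank the first boundary, and cells 19 (851 CPM) and 50 (852 CPM) the second, which thus separates near-equal cells. In the lower range Gata1 had a median of 2.31 CPM (0 to 757). It had 497 CPM (105 to 839) in the middle range and 570 CPM (198 to 1007) in the upper. All 33 cells of the middle and upper ranges held at least 10 CPM of Gata1, whereas 6 of 16 did in the lower, and 6, 17 and 16 cells of the ranges had a Gata1 read after thinning to 85519 reads. The 6 lower-range cells with Gata1 were cells 41, 20, 7, 16, 21 and 37. Cells 20, 7, 16 and 37 lay within the Gata1 levels of the middle range, and cells 41 (89.3 CPM) and 21 (79.5 CPM) lay below both higher ranges.

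Gata2 had medians of 543 CPM (0 to 1104), 208 CPM (0 to 2221) and 192 CPM (3.73 to 1098) in the lower, middle and upper Klf1 ranges. The ranges overlapped almost fully, and levels above 1000 CPM occurred in each of them. Cell 15, the highest for Gata2, lay in the middle range with 105 CPM of Gata1, the lowest Gata1 level of that range. The median log2 ratio of Gata1 to Gata2 was -4.88 in the lower range, 1.73 in the middle and 1.54 in the upper. Gata1 exceeded Gata2 in 1 of 16, 13 of 17 and 13 of 16 cells. The ratio correlated with Klf1 at 0.598 over all cells, at 0.687 within the 21 cells with a Cd34 read and at -0.0640 within the 28 without. Of those 21 cells, 7 had under 10 CPM of Cd34.

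Zfpm1, the FOG1 gene, had medians of 2.02 CPM (0 to 75.0), 22.3 CPM (0.444 to 66.1) and 33.1 CPM (8.83 to 143) along the same order. For the repressor gene Gfi1b the medians were 17.2 CPM (0 to 975), 367 CPM (1.52 to 1211) and 430 CPM (0.877 to 864). High Gfi1b thus occurred in every range, with cell 33 at 975 CPM while its Gata1 was 0 and its Klf1 2.56 CPM. Nfe2 ran the other way, with medians of 603 CPM (0 to 1998), 191 CPM (65.4 to 936) and 138 CPM (11.4 to 469). Myb medians differed little along Klf1, at 437 CPM (3.28 to 994), 512 CPM (248 to 778) and 465 CPM (174 to 1240).

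Among the 6 detected members other than Klf1, 2 (33.3%) correlated with Klf1 at 0.4 or above, Gata1 at 0.593 and Zfpm1 at 0.470. Of 6141 other genes that reached 10 CPM in at least 20 cells, 15.3% did so, and the median over those genes was 0.197. Gfi1b lay just under the line at 0.397. It stood above it with all 52 cells (0.427), by Pearson correlation of log2(CPM + 1) (0.515), given total reads (0.444) and given the G2/M sum (0.428). Gfi1b stayed below without cells 9, 13, 23 and 34 (0.343), in cells of at least 500000 reads (0.332) and after thinning (0.347). Nfe2 was the 1 member (16.7%) at -0.4 or below, with -0.431, where 1.77% of genes lay. Nfe2 stood at -0.373 with all 52 cells, at -0.236 by Pearson correlation of log2(CPM + 1) and at -0.340 given the G2/M sum, so it passed this line in none of these. Gata2 stood at -0.286 and Myb at 0.0198, and by Pearson correlation of log2(CPM + 1) they stood at -0.164 and 0.350. Within the 28 cells without a Cd34 read all 6 members lay between -0.0958 and 0.210 (-0.239 to 0.205 without cells 9, 13 and 23). Within the 21 cells with one Gata1 was at 0.639, Gfi1b at 0.424, Zfpm1 at 0.287 and Nfe2 at -0.388.

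Sequencing depth and cycling genes moved with Klf1. Median reads per cell were 807892, 2353898 and 3335574 in the lower, middle and upper ranges, and Klf1 correlated with total reads at 0.515, against 0.162 for Gata1, 0.209 for Zfpm1 and -0.141 for Nfe2. The summed CPM of 16 genes of the G2 and M phases had medians of 447, 3665 and 3222, and Klf1 correlated with that sum at 0.546. The correlation of Gata1 with Klf1 was 0.602 given total reads and 0.488 given the G2/M sum. That of Gata2 with Klf1 was -0.288 given total reads and -0.0833 given the G2/M sum. The part of depth and cycling in these relations was not tested beyond these values.

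**Figure D3:**
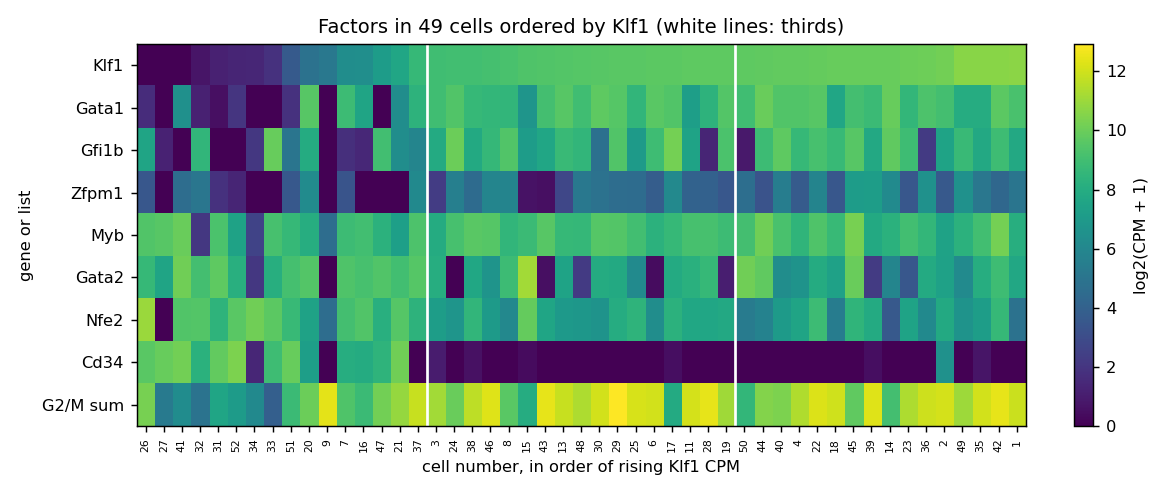
The 7 detected factors, Cd34 and the summed G2/M genes (rows) in 49 cells (columns) placed in order of rising Klf1, coloured by log2(CPM + 1), with white lines at the boundaries of the 3 Klf1 ranges. Gata1 is below 10 CPM in 10 of the 16 lowest cells and bright after the first line, Cd34 is bright in 13 of those 16 and at 10 CPM or more in 1 later cell, cell 2, and Gata2 and Myb are bright in most columns of all ranges.

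Cd34, a surface sialomucin of stem and progenitor cells, had no read in 28 cells, a read below 10 CPM in 7 and 10 CPM or more in 14. Its median was 408 CPM in the lower Klf1 range (0 to 1346), and 13 of those 16 cells held 10 CPM or more. In the middle range it never passed 0.988 CPM, and in the upper range only cell 2 did, with 91.0 CPM. Cell 2 also held 1160 CPM of Klf1 and 530 CPM of Gata1, with 7481542 reads. Cd34, Gata1 and Klf1 were together at 10 CPM or more also in cells 7, 16, 20 and 21, where Klf1 ran from 28.1 to 197 CPM. Cell 20 held 152 CPM of Cd34, 757 CPM of Gata1, 701 CPM of Gata2 and 28.1 CPM of Klf1. Doublets were not called, and their part in such cells was not tested.

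Gata2 was at 166 CPM or more in all 14 cells with 10 CPM or more of Cd34, with a median of 543 and a highest level of 1104. In the 28 cells with no Cd34 read its median was 173 CPM (0 to 1098). The 2 sets overlapped in range, and 22 of the 28 also held at least 10 CPM of Gata2. Nfe2 had a median of 603 CPM (0 to 1998) in the cells with 10 CPM or more of Cd34 and 125 CPM (11.4 to 469) in those without a read. Gata1 had medians of 2.75 CPM and 573 CPM in the same order, and 6 of 14 against 27 of 28 cells held 10 CPM or more of it. Klf1 had medians of 7.18 CPM and 851 CPM, Gfi1b of 55.2 and 427 CPM, and Zfpm1 of 5.99 and 23.7 CPM. Myb differed least, with 437 and 529 CPM. In the 7 cells with a trace of Cd34 the medians of Gata1, Gata2 and Nfe2 were 405, 240 and 311 CPM, all between the other 2 sets.

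Of 7 detected members, 4 (57.1%) correlated with Cd34 at -0.4 or below: Klf1 at -0.672, Gata1 at -0.614, Zfpm1 at -0.428 and Gfi1b at -0.406. That held for 11.6% of 6142 genes. At 0.4 or above lay 2 members (28.6%), Nfe2 at 0.583 and Gata2 at 0.415, against 2.85% of genes, and Myb was at -0.193. Zfpm1 and Gfi1b were at -0.366 and -0.363 with all 52 cells and at -0.348 and -0.388 after thinning, and by Pearson correlation Nfe2 and Gata2 were at 0.305 and 0.384. Cells with 10 CPM or more of Cd34 were shallower, with a median of 1083632 reads against 3021044 in cells without a Cd34 read, and their median G2/M sum was 447 against 3711 CPM. Given the G2/M sum, the correlation with Cd34 was -0.515 for Klf1, -0.511 for Gata1, 0.533 for Nfe2 and 0.234 for Gata2.

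The 7 detected members form 21 pairs, of which 4 (19%) correlated at 0.4 or above, while 2.71% of all pairs of the 6142 genes did. The strongest was Gata1 with Klf1 at 0.593, followed by Gata1 with Gfi1b at 0.488, Klf1 with Zfpm1 at 0.470 and Gata1 with Zfpm1 at 0.464. The 1 pair (4.76%) at -0.4 or below was Klf1 with Nfe2 at -0.431, against 0.490% of all pairs, and Gata1 with Nfe2 was next at -0.399. Gata2 and Nfe2 went together at 0.392. Positive values numbered 13 and negative ones 8, with a median of 0.0688 beside 0.0791 for all pairs. Without cells 9, 13, 23 and 34 Gata1 with Klf1 was at 0.589, Gata1 with Gfi1b at 0.443, and Klf1 and Gata1 with Nfe2 at -0.469 and -0.442, so that 2 pairs lay at -0.4 or below. Given the G2/M sum, Klf1 with Nfe2 was at -0.340. The points share their libraries, and the pairs share genes, so neither is independent.

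Each of these positive pairs had exceptions among the cells. At 10 CPM or more, Gata1 and Klf1 occurred together in 38 cells. Gata1 occurred without Klf1 in cell 41 (89.3 CPM), and Klf1 without Gata1 in cells 9 (35.1 CPM), 47 (141 CPM) and 51 (11.8 CPM). Gata1 without Gfi1b was found in 6 cells, and Gfi1b without Gata1 in 5, cell 33 (975 CPM), cell 47 (510), cell 32 (364), cell 26 (184) and cell 51 (31.2). Gata1 lacked Zfpm1 at 10 CPM in 8 cells, and Zfpm1 lacked Gata1 in 3.

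The pair correlations differed between cells with and without a Cd34 read, sets chosen after the values had been seen. Among the 21 cells with a Cd34 read, Gata1 correlated with Zfpm1 at 0.643 and with Klf1 at 0.639. Among the 28 without a read the same pairs stood at -0.0372 and 0.210, and without cells 9, 13 and 23 the former was at -0.149. In those 28 cells the highest pairs were Nfe2 with Myb at 0.600 and Gata2 with Myb at 0.486, which stood at -0.0805 and 0.234 in the 21 cells with a read, and at 0.0316 and 0.131 there without cell 34. Without cells 9 and 13 and 23, 25 such cells remained and the values were 0.563 and 0.448. Gata1 with Gfi1b was at 0.449 in the 28 cells and 0.402 in the 25. No difference between the sets was tested.

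**Figure D4:**
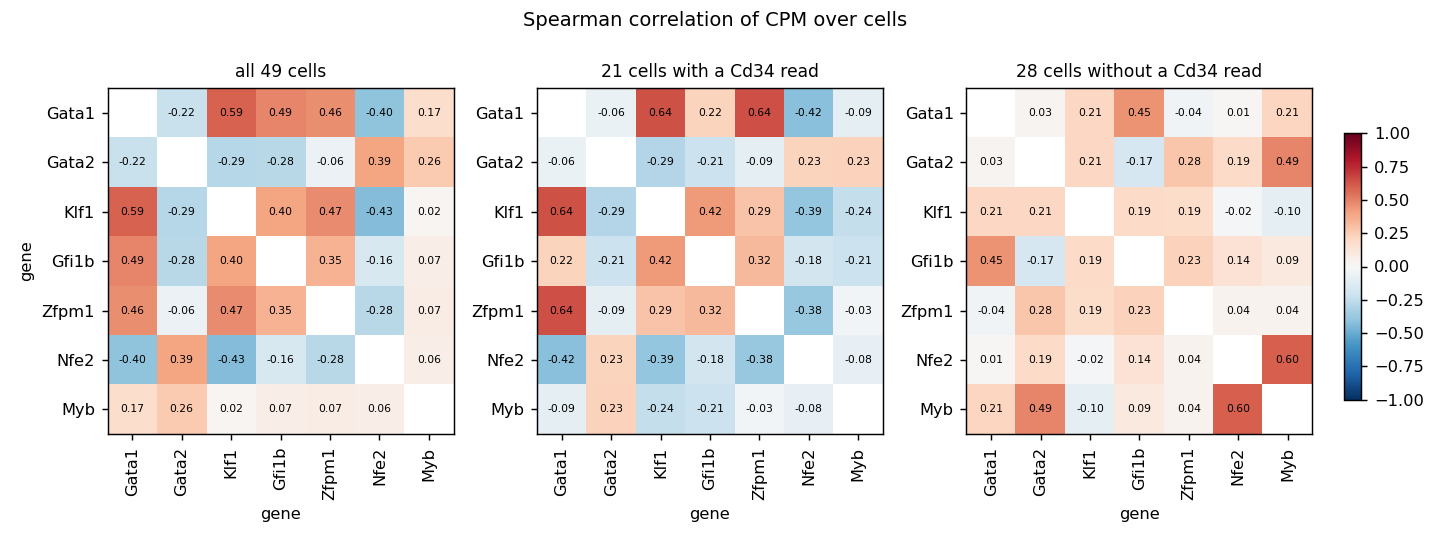
Spearman correlation of CPM for each pair of the 7 detected factors, over all 49 cells (left), the 21 cells with a Cd34 read (middle) and the 28 without (right), with red for positive and blue for negative values. The block of positive values among Gata1, Klf1, Gfi1b and Zfpm1 on the left is fainter on the right, where Nfe2 with Myb (0.600) is the highest pair.

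The genes whose levels followed each member most closely were taken from the 6142 genes. For Klf1 they were the water channel gene Aqp1 (0.760), the E2F family gene E2f8 (0.751) and the red cell membrane gene Ermap (0.730). Gata1 was followed by Timm50, of the mitochondrial import machinery (0.723), Hnrnpul2 (0.709) and E2f8 (0.663). Gata2 was followed by the aldehyde dehydrogenase gene Aldh2 (0.726) and by the actin regulators Gmfg (0.714) and Arpc1b (0.684). Gfi1b had Adh5 (0.649), Ptcd3 (0.612) and Fech (0.611), the last encoding the enzyme that puts iron into haem. Zfpm1 had Pdcd2 (0.626), Mrps18c (0.611) and Rfng (0.601), and Nfe2 had Ifitm3 (0.622), Fxyd5 (0.602) and Myl12b (0.602). Myb had the weakest neighbours, Spop (0.545), S100a10 (0.492) and Anp32e (0.469). E2f8 was the 1 gene shared by 2 members.

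Known targets and partners of the factors were then read along Klf1. These lists, like the members, were chosen with earlier results of these data known. Of the 6141 genes that reached 10 CPM in at least 20 cells, 15.3% correlated with Klf1 at 0.4 or above, with a median of 0.197. Of 18 early red cell targets of GATA1 and KLF1, 17 reached 10 CPM in at least 10 cells. Of these 17, 13 correlated with Klf1 at 0.4 or above, with a median of 0.586. Aqp1 and Ermap were highest, Icam4 (0.275) and the globin repressor gene Bcl11a (0.0371) lowest. Their summed level correlated with Gata1 at 0.606, Klf1 at 0.721, Gata2 at -0.498 and Nfe2 at -0.562. Within the 28 cells without a Cd34 read these were 0.124, 0.188, -0.332 and -0.271. Of 13 late targets, 12 were measured, 6 were ranked and 3 passed 0.4, among them the ankyrin gene Ank1 (0.489), with Hba-a1 (0.148) and Hemgn (0.194) lowest. Late products were scarce: Alas2 and Slc4a1 each had reads in 2 cells, both peaking in cell 2, and Hba-a1 reached 427 CPM there.

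The genes of the GATA complex were present, and their correlations with Klf1 ran in both directions. Of 8 partners, all ranked, 2 passed 0.4, beside 15.3% of the 6141 genes, and the median was 0.0299, beside 0.197. The bridging protein gene Ldb1 (0.557) and Tcf3 (0.415) were highest, and Cbfa2t3 (-0.367) and Lmo2 (-0.238) lowest. The 4 corepressor genes of GFI1 and GFI1B lay between -0.0513 (Kdm1a) and 0.219 (Rcor1), with Hdac2 at 0.0240 and Hdac1 at -0.0105. Of 6 partners and relatives of NFE2, 5 were ranked and none passed 0.4. Nfe2l2 (0.360) and Nfe2l1 (0.308) were highest, and Bach1 (-0.239) and the small Maf gene Mafg (0.0535) lowest. The MYB coactivator genes Ep300 and Crebbp stood at 0.0689 and -0.0860.

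Stem and progenitor genes, a list that includes Cd34, mostly ran against Klf1. Of 12, 11 were ranked, with a median of -0.457. At -0.4 or below lay 7 of them, beside 1.77% of the 6141 genes, and at 0.4 or above 0, beside 15.3%. Cd34 (-0.672) and Meis1 (-0.621), a homeobox gene of stem cells, were lowest, and Hhex (-0.0343) and Hoxa9 (-0.216) highest. Their summed level correlated with Gata2 at 0.598, and at 0.579 and 0.388 within the cells with and without a Cd34 read. For Nfe2 the values were 0.401, 0.334 and -0.0640. Of 10 factors of other lineages 2 were ranked, Ikzf1 at 0.386 and the myeloid gene Spi1 at -0.395, and Cebpe had no read.

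Markers of other cell types moved with some members. The sum of 8 neutrophil and monocyte markers had medians of 719, 0.782 and 20.3 CPM in the lower, middle and upper Klf1 ranges (0.673 to 44680, 0 to 485 and 0 to 219), with Elane at 0 in every cell. It correlated with Nfe2 at 0.559 and with Gata1 at -0.476. Without cells 9, 13, 23 and 34 these were 0.539 and -0.475. The sum of 8 megakaryocyte markers had medians of 482, 32.9 and 24.6 CPM (0 to 3089, 0 to 1133 and 0 to 378) and correlated with Nfe2 at 0.323 and Gata2 at 0.364. The 8 stem cell markers had medians of 1585, 3.82 and 0.880 CPM (highest 2493, 1309 and 435), with none at 0 in every cell. Of 8 lymphoid markers Cd3e, Cd4 and Il7r were at 0, and the sum had medians of 137, 0.248 and 0.192 CPM (highest 4058, 560 and 552). All 8 red cell markers, which include Klf1 and Gata1 themselves, had reads, and their sum had medians of 2088, 14569 and 14543 CPM in the 3 ranges (232 to 9518, 3159 to 19105 and 7242 to 20501). Their part in the members' relations was not tested.

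Mast cells and basophils, which also use GATA2, were looked for by 8 markers. Ms4a2, Prss34, Cma1 and Tpsb2 had no read, and the sum had a median of 0 in every range, with highest values of 640, 57.1 and 0 CPM. Cell 16 held most of what was found, with Cpa3 at 281 CPM, Fcer1a at 181 and Hdc at 178, beside 573 CPM of Gata2 and 188 CPM of Gata1. The eosinophil genes Prg2, Epx and Il5ra had no read in any cell.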

How the data were processed

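Per the labels, 52 single-cell Smart-seq2 libraries of 1 group were made. The authors deposited expected counts (estimated counts) per gene, of which 4.23% were not whole. The submitters' processing notes name Trim Galore 0.5.0, Salmon 0.03.1 (as written there) and the GRCm38 build. Which transcripts and which strand setting were used is not given in the sources used here. The estimate shares reads among overlapping or near-identical genes by a model, so their split is uncertain.

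Symbols and coordinates came from GENCODE M21 on GRCm38 (27728 identifiers, 96.3%, had a symbol). Counts were rounded to whole reads and scaled to CPM. Cells were kept with at least 50000 reads, 1000 genes and at most 20% mitochondrial reads, which left out 3 (cell 5 for mitochondrial reads, cells 10 and 12 for depth). The kept cells' mitochondrial share had a median of 3.44% (0.629% to 6.04%). Spearman correlations used CPM, with ±0.4 as the value counted. Correlations given total reads or the G2/M sum are partial rank correlations. The correlation steps were tested on simulated data. No doublet caller was run, because 52 wells are too few. Thinning drew each cell to 85519 reads at random (seed 1). Python 3.11.15, numpy 2.4.6, pandas 2.3.3 and scipy 1.17.1 were used.

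The members and gene lists were chosen with earlier results of these data known. Named besides the members are the 3 genes closest to each, the 2 highest and 2 lowest of each list against Klf1 among genes at 10 CPM in at least 10 cells, and marker genes, except 1 gene that is not reported here. Other genes and single cells were chosen after their values were seen. Alternatives were other cell filters, thinning, other totals, unrounded counts, other detection limits, Pearson correlation and correlations given depth or G2/M. Added after the data were seen were values within the cells with and without a Cd34 read, and another transcript length. With 1 group and no animal named, no p-value was computed.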

Additional observations from a re-analysis of the deposited data

Results flagged for a closer look

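Cells that the filter left out still held reads of the members. Cell 5, left out for its mitochondrial share, had Gata1 at 42.3 CPM, Klf1 at 605 CPM, Gfi1b at 215 CPM and Myb at 736 CPM. Cell 12, left out for its depth of 32439 reads, had Gata1 at 123 CPM, Gata2 at 339 CPM, Klf1 at 432 CPM, Gfi1b at 123 CPM, Nfe2 at 154 CPM and Myb at 462 CPM. Each of these rests on more than the 3 reads that a count of 0 allows, and these cells enter only the values given with all 52 cells.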

How the results depend on the processing

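Of 561 values recomputed under an alternative, 460 stayed within the tolerance set for their kind (0.1 for a correlation, 1.5 times for a count, the 95% interval for a share of cells, 1 SD over cells for a level) and 100 moved further. The sign differed from the reported one in 30 of 366 recomputed correlations (each with Klf1 counted both as a pair and in the order along Klf1), 10 of them within the cells without a Cd34 read. Among those reported at 0.4 or more in size 1 did so, the remaining value of the 561, Gata1 with Zfpm1, at -0.0372 within the cells without a Cd34 read. The count of members read in 50% or more of the cells was 7 under all 8 alternatives run on it. The number of pairs at -0.4 or below, 1 as reported, was 0 with all 52 cells, 2 without cells 9, 13, 23 and 34, 2 in cells of at least 500000 reads, 0 by Pearson correlation, 0 given the G2/M sum and 0 within the cells without a Cd34 read. The number of members at -0.4 or below with Klf1, 1 as reported, was 0 with all 52 cells, by Pearson correlation, given the G2/M sum, and within the cells with or without a Cd34 read. That at 0.4 or above, 2 as reported, was 0 within the cells without a Cd34 read. It was 3 with all 52 cells, by Pearson correlation, given total reads and given the G2/M sum. With Cd34, the 4 members at -0.4 or below became 2 with all 52 cells and 2 after thinning, and the 2 at 0.4 or above became 0 by Pearson correlation and 1 given the G2/M sum. The cause was not tested. No paired analysis was possible because there is 1 group. Depth limits Zfpm1 and the traces of Cd34 most: after thinning no cell with a trace of Cd34 had a Cd34 read.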
